A study of Mus musculus with 14 samples.

Results

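The expression of 10 genes that shape and remove mitochondria was examined in hearts of mice with a complex I defect. They were Mfn1, Mfn2 and Opa1 for fusion, Dnm1l, Mff and Fis1 for fission, and Pink1, Bnip3, Bnip3l and Fundc1 for mitophagy. They were taken by symbol, and all 10 were present in both count tables among 42396 rows. All 10 passed the filter on low values in both experiments. Mitochondria fuse and divide continuously, and dynamin-like GTPases drive both processes. Mitofusins join the outer membranes and Opa1 joins the inner membranes, whereas Dnm1l (Drp1) is recruited by adaptor proteins to constrict the organelle. Damaged mitochondria are handed to autophagosomes either by the kinase Pink1 together with the ubiquitin ligase parkin, or by receptors in the outer membrane that bind the autophagosome directly, and the cardiomyocyte, packed with mitochondria, depends on this turnover.

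All 14 hearts came from female FS6KD mice, that is, mice homozygous for a gene trap in Ndufs6 (Ndufs6 gt/gt), which encodes a subunit of complex I. The line was kept on a mixed genetic background. In the knockout experiment, 4 Atf3-/-FS6KD hearts were compared with 4 Atf3+/+FS6KD hearts at 12 weeks. Atf3 encodes a stress-induced transcription factor. The null allele was made with CRISPR-Cas9 as a large deletion from exon 2 to exon 4 in fertilized eggs that carried the gene trap, and founders were intercrossed. In the AAV experiment, neonatal FS6KD mice had received MyoAAV2, a muscle-directed adeno-associated virus, with a short hairpin RNA against Atf3 (MyoAAV2-shAtf3) or a control hairpin (MyoAAV2-shCtrl), with 3 hearts in each group and collection 12 weeks later. The columns of that table carry names opposite to the sample titles. The titles were followed, the groups are called "labelled shCtrl" and "labelled shAtf3", and each direction in the AAV experiment holds only if the titles are right.

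The whole heart was sequenced, so that fewer cells of a type and less RNA per cell cannot be told apart. Total counts were 33914931 to 134920825 in the knockout libraries and 30085432 to 40534913 in the AAV libraries. Replicates 3 and 4 of both genotypes were deeper than replicates 1 and 2. Atf3 itself was at 6.36 to 25.8 CPM (counts scaled to the size of the library) in Atf3+/+FS6KD, 14.3 to 37.6 CPM in Atf3-/-FS6KD, 10.1 to 14.1 CPM in labelled shCtrl and 12.1 to 21.2 CPM in labelled shAtf3 libraries. A count over the whole gene can include exon sequence outside the deletion, so in the knockout experiment it does not check the genotype (log2 fold change 1.14 ± 0.49, edgeR adjusted p = 0.480). Atf3+/+FS6KD replicate 1 was at 25.8 CPM and the other 3 of its group at 6.36 to 6.91 CPM, and without it the log2 fold change was 1.89 ± 0.29 (adjusted p = 0.113). In the AAV experiment the count does bear on the knockdown, and its point estimate went against the titles without passing the test. Atf3 averaged 12.5 ± 2.13 CPM in labelled shCtrl and 16.6 ± 4.52 CPM in labelled shAtf3 (SD, n = 3 each), a log2 fold change of 0.41 ± 0.19 with overlapping groups (edgeR unadjusted p = 0.0610, adjusted p = 0.420). Leaving out 1 library gave 0.20 (without labelled shAtf3 replicate 1, adjusted p = 0.762) to 0.60 (without labelled shAtf3 replicate 2, adjusted p = 0.326). Its sign is the one that the column names would give for a knockdown. Ndufs6 was at 2.34 to 3.79 CPM in all 14 libraries. Defining cardiomyocyte markers (Myh6, Tnnt2, Tnni3, Actc1, Myl2, Ryr2 and Pln) were present in every group, and their summed level was 48029 to 70244 CPM.

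The genes lie on 8 chromosomes of the GRCm38 assembly. Mfn1 lies on the plus strand at chr3:32529465-32579239, Mfn2 on the minus strand at chr4:147873599-147904704, and Opa1 on the plus strand at chr16:29579334-29654884. Dnm1l is at chr16:16312230-16358959 (minus), Mff at chr1:82724890-82752394 (plus) and Fis1 at chr5:136953275-136966234 (plus). Pink1 shares chromosome 4 with Mfn2 and is at chr4:138313409-138326307 (minus). Bnip3 is at chr7:138890836-138909519 (minus), Bnip3l at chr14:66985239-67008877 (minus) and Fundc1 at chrX:17556564-17572325 (minus).

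The promoters of Opa1 and Bnip3 are shown because these genes had the smallest adjusted p-values in the tests described below and because Atf3 is a DNA-binding factor of the basic leucine zipper class. RefSeq (GRCm38.p6) gave 14 promoter windows for 9 of the 10 genes, each with 250 bases before and 50 bases after a transcription start, and the entry for Bnip3l was missing. The 250 bases before the start are printed 5′ to 3′ on the gene's strand, for Opa1 at chr16:29579084-29579333 (plus strand) and for Bnip3 at chr7:138909507-138909756 (minus strand). Capitals mark in Opa1 a match to TGANTCA, a loosened AP-1 pattern that takes any base at its centre. The base there is T, so the match is not the AP-1 consensus site. In Bnip3 they mark the 2 overlapping matches to ACGTG, the core of the hypoxia response element.
Opa1: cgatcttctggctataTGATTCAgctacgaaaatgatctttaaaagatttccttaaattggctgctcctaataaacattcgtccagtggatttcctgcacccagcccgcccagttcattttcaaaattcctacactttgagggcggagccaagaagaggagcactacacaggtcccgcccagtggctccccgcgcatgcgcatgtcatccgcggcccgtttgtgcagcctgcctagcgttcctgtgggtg
Bnip3: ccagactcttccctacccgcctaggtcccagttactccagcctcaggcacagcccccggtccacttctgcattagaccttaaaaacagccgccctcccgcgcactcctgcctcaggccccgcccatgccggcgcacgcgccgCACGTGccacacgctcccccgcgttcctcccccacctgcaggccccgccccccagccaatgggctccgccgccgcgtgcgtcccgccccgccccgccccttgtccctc

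Both strands of all 32851 promoter windows were searched for 5 motifs. The full CRE/ATF site TGACGTCA was in 0 of the 14 windows, against 1.79% of all windows. The loosened AP-1 pattern TGANTCA was in 1 window, that of Opa1, where the match begins at position -234 from the start, against 7.81% of all windows. The consensus site was not searched for separately. ACGTG was in 3 windows, against 19.6% of all. In Bnip3 it was found on both strands around position -108 as CACGTG, and in Mfn2 a single site fell in 2 overlapping windows. The C/EBP-ATF response element TGATGNAA and the estrogen-related receptor site TCAAGGTCA were in 0 of the 14 windows, against 3.97% and 0.423% of all. These are matches of letters in short windows and do not show binding.

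Levels were compared between genes as CPM per kilobase (kb) of merged exons over all 14 libraries. Pink1 was the most abundant, with a median of 247 CPM per kb (range 208 to 288). Mfn2 with its copy row, described below, had a median of 198 CPM per kb (174 to 250), and Mfn2 alone had 122 CPM per kb (93.2 to 158). Mfn1, the other mitofusin, had 66.2 CPM per kb (52.9 to 74.4). Mfn2 thus exceeded Mfn1 in every library, by 1.53 to 2.26 times alone and by 2.44 to 3.60 times with its copy.

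Among the other genes, Bnip3 had a median of 94.0 CPM per kb (75.6 to 122), Fis1 52.2 (48.6 to 57.1), Opa1 44.3 (39.7 to 49.5) and Dnm1l 35.4 (30.1 to 40.4). Bnip3l had 22.8 CPM per kb (20.8 to 24.4), Mff 14.99 (14.4 to 15.7) and Fundc1 12.7 (11.4 to 13.98). With Mfn2 summed, the neighbours in this order whose ranges did not overlap were Mfn2 and Bnip3, Bnip3 and Mfn1, Dnm1l and Bnip3l, Bnip3l and Mff, and Mff and Fundc1. With Mfn2 alone, Pink1 and Mfn2 took the place of Mfn2 and Bnip3, and the other neighbours overlapped. Bnip3 exceeded its paralog Bnip3l in every library, by 3.10 to 5.57 times. With the longest annotated transcript as the length, mean levels over the libraries changed their order at a pair of places. Fis1 (94.5 CPM per kb) then stood above Mfn1 (86.2 CPM per kb), and Mff (37.3 CPM per kb) above Bnip3l (26.9 CPM per kb).

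**Figure D1:**
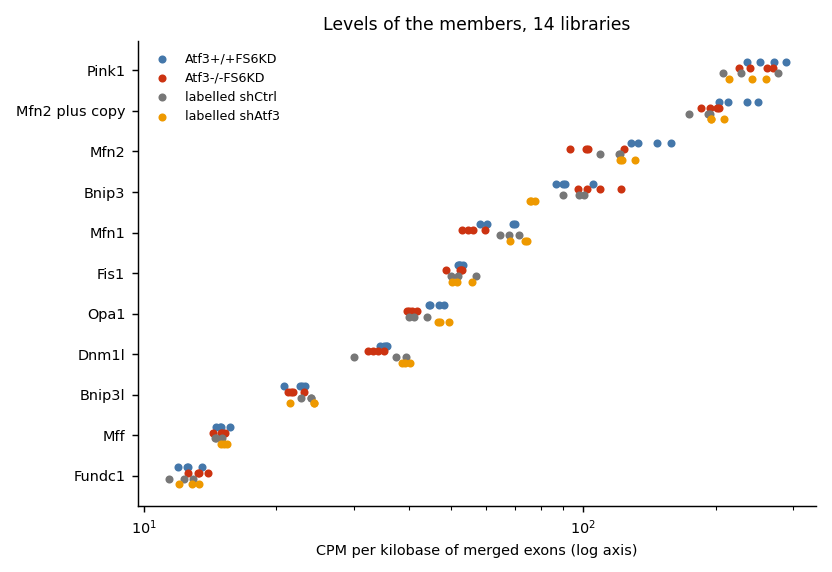
Level of each gene in each of the 14 libraries, in CPM per kilobase of merged exons on a log axis, with 1 point per library colored by group. Pink1 and Mfn2 with its copy lie highest, and Mff and Fundc1 lie lowest at 11.4 to 15.7 CPM per kb.

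The comparison of Atf3-/-FS6KD with Atf3+/+FS6KD addressed whether loss of Atf3 alters mitochondrial genes in the diseased heart. The fusion genes were lower by point estimate, Bnip3 was higher, and the fission genes and the other mitophagy genes differed little. None of the 10 genes passed the test (edgeR quasi-likelihood test, Benjamini-Hochberg adjusted p from 0.277 to 0.947), and neither did any other of the 15592 genes tested (0% called). At an unadjusted p below 0.05 there were 4 of the 10 genes (Mfn2, Opa1, Mfn1 and Bnip3), against 10.1% of all genes. DESeq2 called 2 of the 10, Mfn2 (adjusted p = 0.00980) and Opa1 (adjusted p = 0.0203), among 208 genes in all (1.33%). The median log2 fold change of the 10 was -0.05 (range -0.43 to 0.21), and that of all genes was 0.00054. By sign, 8 of the 10 were lower, where 49.8% of all genes were. With library size alone as the scaling, the median of all genes moved to 0.06 and 5 of the 10 genes were below 0, while 8 remained below that median.

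The comparison of labelled shAtf3 with labelled shCtrl addressed the same question for muscle-directed knockdown. Here Opa1 and the mitofusins were higher by point estimate and Bnip3 was lower. None of the 10 genes passed the edgeR test (adjusted p from 0.0638 to 0.999), against 0.539% of 15225 genes tested. At an unadjusted p below 0.05 there were 2 of the 10, Bnip3 and Opa1, against 12.7% of all genes. DESeq2 called 1 of the 10, Bnip3 (adjusted p = 0.000558), among 308 genes in all (2.02%). The median log2 fold change of the 10 was 0.05 (range -0.33 to 0.19), against -0.0029 for all genes, and 3 of the 10 were lower, where 50.9% of all genes were. Scaling by library size alone gave a median over all genes of -0.04 and 4 of the 10 lower.

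Whether each gene differed between the experiments was tested as the knockout log2 fold change minus the AAV log2 fold change in a single edgeR fit of the 14 libraries. None of the 10 genes passed (adjusted p from 0.0515 to 0.988), against 0.166% of 15708 genes tested. Opa1, Bnip3, Mfn2 and Mfn1 had an unadjusted p below 0.05, against 17% of all genes. DESeq2 called 3 of the 10, Opa1 (adjusted p = 3.85e-05), Bnip3 (adjusted p = 0.00333) and Mfn2 (adjusted p = 0.0100), among 669 genes in all (4.26%). With library size alone, the median of all genes in this contrast moved to 0.11, and the number of the 10 genes below 0 went from 8 to 4 (49.9% of all genes were below 0 with TMM).

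This difference depends on the titles of the AAV samples. With the AAV groups taken from the column names instead, an alternative chosen after the data were seen, each AAV log2 fold change keeps its size and p and turns its sign. The difference was then 0.02 ± 0.07 for Opa1 (95% interval -0.14 to 0.17), -0.12 ± 0.12 for Bnip3 (-0.37 to 0.13), -0.33 ± 0.13 for Mfn2 alone (-0.61 to -0.05) and -0.10 ± 0.10 for the Mfn2 sum (-0.31 to 0.12). By edgeR none of the 10 genes and 0% of all genes passed, and at an unadjusted p below 0.05 there were 1 of the 10 (Mfn2) and 4.14% of all genes. Under the column names Opa1 and Bnip3 would thus lie on the same side in both experiments, and under the titles on opposite sides.

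**Figure D2:**
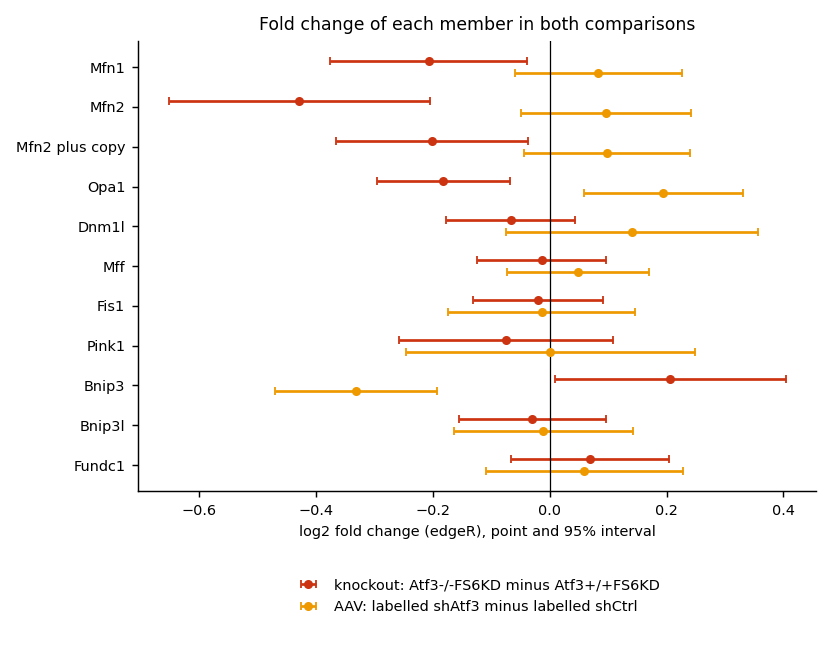
Log2 fold change of each gene with its 95% interval from edgeR, for Atf3-/-FS6KD minus Atf3+/+FS6KD and for labelled shAtf3 minus labelled shCtrl. Points for the fusion genes lie below 0 in the knockout comparison and above 0 in the AAV comparison, those for Bnip3 lie the other way (AAV signs by the sample titles, and turned by the column names), and the intervals of the other genes include 0.

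Values per heart are given in the order of the replicate numbers. Mfn1 encodes a mitofusin of the outer membrane. It was at 369.6, 422, 356 and 427 CPM in the Atf3+/+FS6KD hearts and at 364, 324, 334 and 342 CPM in the Atf3-/-FS6KD hearts. The groups overlapped through Atf3-/-FS6KD replicate 1, which lay above the lowest Atf3+/+FS6KD heart. This gave a log2 fold change of -0.21 ± 0.07 (SE; 95% interval -0.38 to -0.04; edgeR unadjusted p = 0.0216, adjusted p = 0.423). With AAV, Mfn1 was at 436, 414 and 396 CPM in labelled shCtrl and at 416, 455 and 449 CPM in labelled shAtf3 hearts, which overlapped as well (log2 fold change 0.08 ± 0.06, adjusted p = 0.634). The difference between the experiments was -0.29 ± 0.10 (adjusted p = 0.164).

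Mfn2 encodes the other mitofusin, which also tethers mitochondria to the endoplasmic reticulum. It was the only one of the 10 genes with a further row under its name, Mfn2_1. This row was read as a copy of Mfn2 on an alternate locus of the assembly, which the labels do not state, and the rows share reads. Alone, Mfn2 was at 690.2, 764, 665 and 819.9 CPM in the Atf3+/+FS6KD hearts and at 532, 484, 641 and 527 CPM in the Atf3-/-FS6KD hearts. The groups did not overlap, as for 5.71% of all genes tested (2.63% with the knockout lower). This was a log2 fold change of -0.43 ± 0.10 (95% interval -0.65 to -0.21, edgeR unadjusted p = 0.00182, adjusted p = 0.277). It was the greatest decrease among the 10 genes only with Mfn2 counted alone. The sum with its copy, given below, had -0.20, and Mfn1 had -0.21.

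The copy row gave the opposite sign. Mfn2_1 was at 419, 459, 392 and 469.8 CPM in Atf3+/+FS6KD and at 523, 480.2, 369 and 518 CPM in Atf3-/-FS6KD (log2 fold change 0.12 ± 0.11, adjusted p = 0.742). Summed with its copy, Mfn2 was at 1106, 1221, 1057 and 1297 CPM in Atf3+/+FS6KD and at 1054, 962, 1011 and 1046 CPM in Atf3-/-FS6KD. The sums still did not overlap, with 1054 CPM next to 1057 CPM at the border. Their log2 fold change was -0.20 ± 0.07 (95% interval -0.37 to -0.04; unadjusted p = 0.0216, adjusted p = 0.423), a smaller change than that of Mfn2 alone (-0.43). DESeq2, which called Mfn2 alone, did not call the sum (adjusted p = 0.212).

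The share of Mfn2 reads on the copy row separated 3 libraries from the rest. It was 37.8, 37.5, 37.1 and 36.4% in the Atf3+/+FS6KD hearts and 49.6, 49.8, 36.6 and 49.5% in the Atf3-/-FS6KD hearts. In the AAV libraries it was 37.1 to 37.8%. Atf3-/-FS6KD replicates 1, 2 and 4 thus stood at 49.5 to 49.8%, and the other 11 libraries, with Atf3-/-FS6KD replicate 3 among them, at 36.4 to 37.8%. The means of the genotypes were 37.2% ± 0.593 and 46.4% ± 6.54 (SD, n = 4 each), a difference of 9.17 percentage points that did not pass a two-sided exact permutation test (p = 0.114, where the smallest possible p is 0.0286). Without Atf3-/-FS6KD replicate 3, the library that stood apart, the difference was 12.4 percentage points, for which no test is given because that library was picked by its share. In the AAV experiment the difference was 0.116 percentage points (exact permutation p = 0.80, smallest possible 0.10).

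The neighbours of Mfn2 separated the same 3 libraries. Of 30 other genes that had a copy row and a mean count above 500 between Zfp992 and Lzic (chr4:146449030-149503516), 24 had a higher copy share in these 3 libraries than in every one of the other 11. All 24 lay in a stretch of 1.61 Mb around Mfn2, from Zfp933 to Ube4b (chr4:147822986-149428161), where 25 such genes were counted. The copy share of Plod1, which encodes a collagen lysyl hydroxylase, was 44.3 to 45.1% in the 3 libraries and 37.2 to 39.5% in the others. That of Nppb, the gene of the brain natriuretic peptide, was 43.1 to 44.8% against 31.2 to 32.3%. For Mtor, which encodes a nutrient-sensing kinase, it was 49.8 to 50.4% against 39.7 to 41.0%. Over the whole table, with Mfn2 left out, 34 of 479 genes with a copy row at such counts showed this order, and 31 of the 34 were on chromosome 4.

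Counting these 24 neighbours with or without their copies altered their knockout fold changes too. Of all genes tested without merging, 49.8% were lower in Atf3-/-FS6KD and 10.1% had an edgeR unadjusted p below 0.05. Alone, 21 of the 24 were lower in Atf3-/-FS6KD, with a median log2 fold change of -0.24 and 10 at an unadjusted p below 0.05. With copies merged, 15 of the 24 were lower, with a median of -0.04 and 5 at an unadjusted p below 0.05. These genes were chosen by their copy shares in these libraries, so the counts are a description. What set the 3 libraries apart was not tested.

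**Figure D3:**
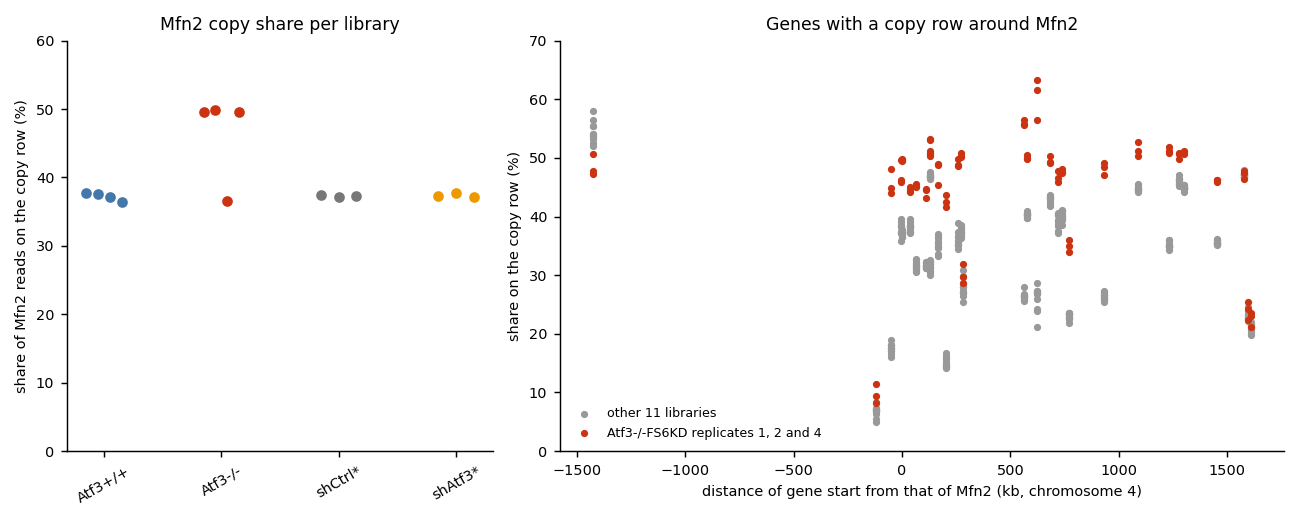
Left, share of Mfn2 reads on the copy row (percent) in each library, and right, the same share for genes with a copy row against the distance of their start from that of Mfn2 on chromosome 4 (kb), with Atf3-/-FS6KD replicates 1, 2 and 4 in red and the other 11 libraries in gray. The 3 libraries lie at 49.5 to 49.8% for Mfn2, against 36.4 to 37.8% in the others, and 24 of the neighbours show the same order.

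In the AAV experiment, where the copy share was even, Mfn2 alone and summed gave like values. Mfn2 alone was at 566, 626 and 629 CPM in labelled shCtrl and at 636, 629.6 and 681 CPM in labelled shAtf3 hearts. The groups met without overlapping, as did 18.4% of all genes tested (8.48% with labelled shAtf3 higher). The log2 fold change was 0.10 ± 0.06 for Mfn2 alone (adjusted p = 0.577) and 0.10 ± 0.06 for the sum (adjusted p = 0.562). The difference between the experiments was -0.53 ± 0.13 for Mfn2 alone (unadjusted p = 0.00140, adjusted p = 0.0888) and -0.30 ± 0.10 for the sum (unadjusted p = 0.00984, adjusted p = 0.153).

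Opa1 encodes the GTPase that fuses inner membranes and holds the cristae tight. It was at 350.5, 369.9, 352 and 379 CPM in the Atf3+/+FS6KD hearts and at 329.8, 321, 313 and 316 CPM in the Atf3-/-FS6KD hearts. All Atf3-/-FS6KD hearts lay below all Atf3+/+FS6KD hearts, an order that 2.63% of all genes tested had. Opa1 had a log2 fold change of -0.18 ± 0.05 (95% interval -0.30 to -0.07; unadjusted p = 0.00540, adjusted p = 0.346). With AAV, Opa1 was at 324, 347 and 316 CPM in labelled shCtrl and at 368, 390.2 and 371 CPM in labelled shAtf3 hearts. Again the groups did not overlap, now with the labelled shAtf3 hearts above (8.48% of all genes tested). Of the 15109 genes tested in both experiments, 0.503% had both of these orders, and 0.0662% were lower in both by the titles. With the column names the first share would be that of genes lower in both. The AAV log2 fold change was 0.19 ± 0.06 (95% interval 0.06 to 0.33; unadjusted p = 0.0102, adjusted p = 0.240). The difference between the experiments was -0.38 ± 0.07 (95% interval -0.53 to -0.23; unadjusted p = 0.000109, adjusted p = 0.0515), just outside the threshold of 0.05. In the same contrast with copy rows merged, the adjusted p of Opa1 was 0.0484.

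**Figure D4:**
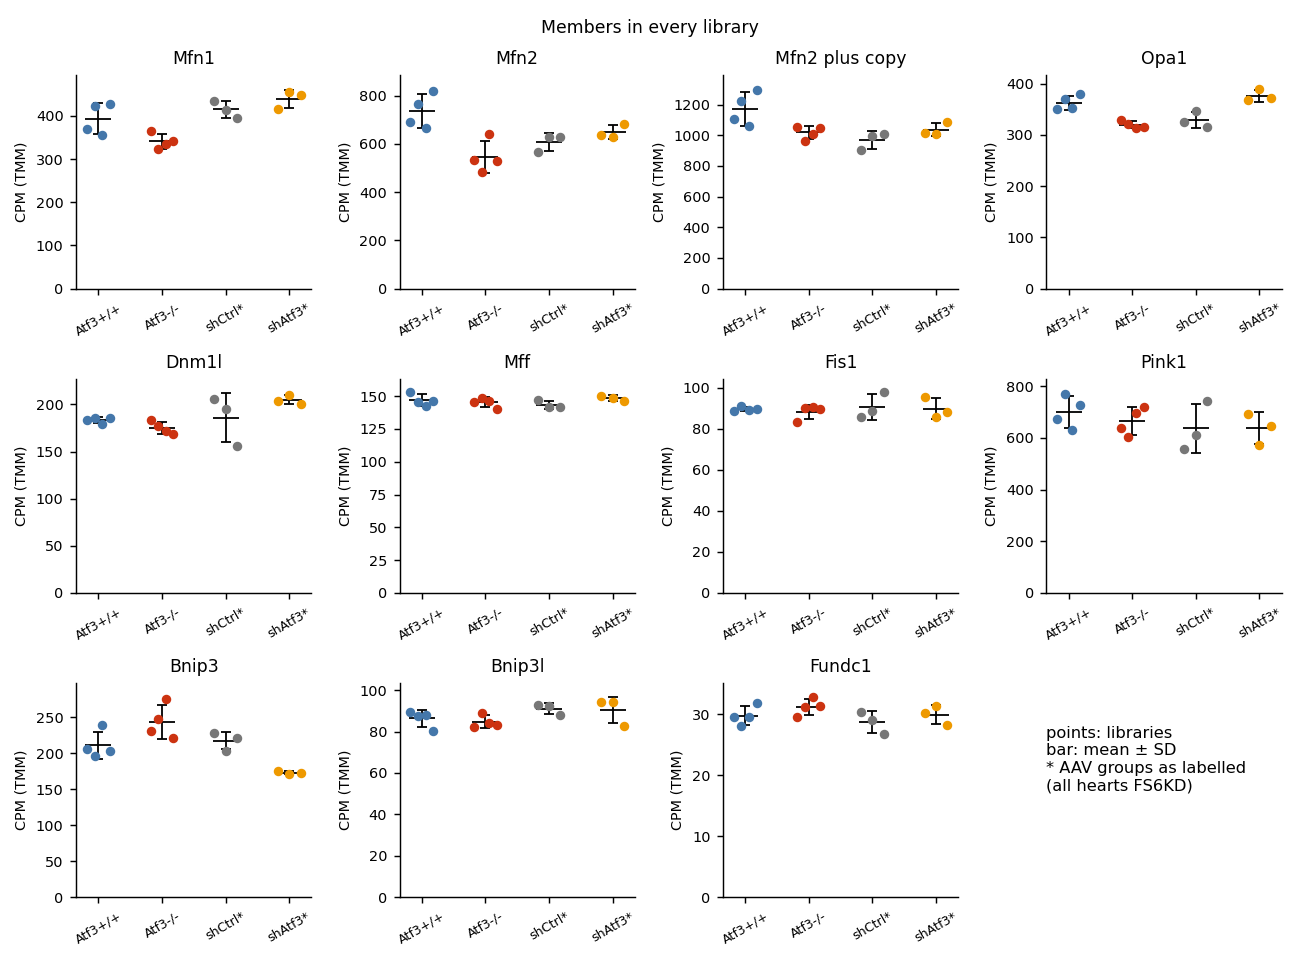
TMM-normalized CPM of each gene in each library, with 1 point per library and bars at the mean ± SD of each group (n = 4 or 3). By the sample titles Opa1 and Bnip3 lie in opposite directions in the knockout and AAV experiments (by the column names, in the same direction). The groups of Mfn1, Dnm1l, Mff, Fis1, Pink1, Bnip3l and Fundc1 overlap in both comparisons.

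Among the fission genes, Dnm1l encodes the GTPase that constricts mitochondria. It was at 183, 185, 179.6 and 186 CPM in Atf3+/+FS6KD and at 183, 177, 172 and 169 CPM in Atf3-/-FS6KD (log2 fold change -0.07 ± 0.05; 95% interval -0.18 to 0.04; adjusted p = 0.661). With AAV, Dnm1l was at 206, 195 and 156 CPM in labelled shCtrl and at 204, 210.1 and 201 CPM in labelled shAtf3 hearts. Labelled shCtrl replicate 3 lay below the other 5 libraries there, and the log2 fold change was 0.14 ± 0.10 (95% interval -0.07 to 0.36; adjusted p = 0.580). Without that library it was 0.03 ± 0.06 (adjusted p = 0.853), and without labelled shCtrl replicate 1 it was 0.22 ± 0.09 (adjusted p = 0.391). The difference between the experiments was -0.21 (adjusted p = 0.315), or -0.11 without labelled shCtrl replicate 3.

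Mff and Fis1 encode adaptors of the outer membrane, of which Mff recruits Dnm1l. Mff ranged from 140.4 to 153 CPM in the 14 libraries. Its log2 fold change was -0.01 in the knockout comparison (95% interval -0.12 to 0.10; adjusted p = 0.947) and 0.05 in the AAV comparison (95% interval -0.07 to 0.17; adjusted p = 0.770). Fis1 ranged from 83.2 to 97.9 CPM. The log2 fold change of Fis1 was -0.02 in the knockout comparison (95% interval -0.13 to 0.09; adjusted p = 0.915) and -0.01 in the AAV comparison (95% interval -0.17 to 0.15; adjusted p = 0.961). The groups overlapped for both genes in both experiments. These intervals reach as far as 0.17 for Mff and -0.17 for Fis1, both in the AAV comparison.

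Among the mitophagy genes, Pink1 encodes the kinase that marks depolarized mitochondria for parkin. It was at 674, 771, 631 and 726 CPM in Atf3+/+FS6KD and at 639, 603, 698 and 719.9 CPM in Atf3-/-FS6KD (log2 fold change -0.07 ± 0.08; 95% interval -0.26 to 0.11; adjusted p = 0.780). The groups overlapped. The log2 fold change was -0.21 ± 0.10 within replicates 1 and 2 and 0.06 ± 0.10 within replicates 3 and 4, and whether these differ was not tested. With AAV, Pink1 was at 557, 612 and 742 CPM in labelled shCtrl and at 694, 573 and 645 CPM in labelled shAtf3 hearts. That log2 fold change was 0.00 (95% interval -0.25 to 0.25; adjusted p = 0.999), the widest interval of the 10 genes.

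Bnip3 encodes an outer-membrane mitophagy receptor that hypoxia-inducible factor induces. It was at 206, 196, 238 and 203 CPM in the Atf3+/+FS6KD hearts and at 230.5, 247, 275 and 220.4 CPM in the Atf3-/-FS6KD hearts. The groups overlapped through Atf3+/+FS6KD replicate 3. Bnip3 had a log2 fold change of 0.21 ± 0.09 (95% interval 0.01 to 0.40; unadjusted p = 0.0423, adjusted p = 0.476). With AAV, Bnip3 was at 227, 203 and 221 CPM in labelled shCtrl and at 175, 171 and 172 CPM in labelled shAtf3 hearts. All labelled shAtf3 hearts lay below all labelled shCtrl hearts, as for 9.94% of all genes tested. It amounted to a log2 fold change of -0.33 ± 0.06 (95% interval -0.47 to -0.19; unadjusted p = 0.000413, adjusted p = 0.0638), the smallest adjusted p of the 10 genes in that comparison. The difference between the experiments was 0.53 ± 0.12 (95% interval 0.29 to 0.78; unadjusted p = 0.000427, adjusted p = 0.0808).

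The other receptors stayed near equal. Bnip3l (Nix) encodes the paralog of Bnip3, best known for clearing mitochondria from maturing red cells, and ranged from 80.3 to 94.1 CPM in the 14 libraries. The log2 fold change of Bnip3l was -0.03 in the knockout comparison (95% interval -0.16 to 0.10; adjusted p = 0.883) and -0.01 in the AAV comparison (95% interval -0.16 to 0.14; adjusted p = 0.968). Fundc1 encodes a receptor of hypoxia-induced mitophagy and ranged from 26.8 to 32.9 CPM. For Fundc1 the log2 fold change was 0.07 in the knockout comparison (95% interval -0.07 to 0.20; adjusted p = 0.714) and 0.06 in the AAV comparison (95% interval -0.11 to 0.23; adjusted p = 0.802). Bnip3 was thus the only receptor of the 3 with an unadjusted p below 0.05 in either experiment, and whether it differed from its paralog was not tested.

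The knockout values were compared within depth batches (replicates 1 and 2, then replicates 3 and 4), which were formed from the total counts, as no label names a batch. Mfn1 gave -0.20 and -0.21, the Mfn2 sum -0.20 and -0.19, Opa1 -0.14 and -0.22, and Bnip3 0.25 and 0.17 as log2 fold changes. Mfn2 alone gave -0.51 and -0.35, where Atf3-/-FS6KD replicate 3, the library with the lower copy share, is in the deeper batch. None of these within-batch values passed the test.

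Fibroblast markers had the signs of Bnip3 in both comparisons. The summed level of Col1a1, Col1a2, Dcn, Lum, Pdgfra and Tcf21 was 1234 to 1553 CPM in Atf3+/+FS6KD and 1452 to 1934 CPM in Atf3-/-FS6KD. In the AAV experiment it was 1544 to 1937 CPM in labelled shCtrl and 1233 to 1365 CPM in labelled shAtf3 hearts, which did not overlap. By sign, 6 of the 6 markers were higher in the knockout comparison (0 called by edgeR, 5 at an unadjusted p below 0.05). DESeq2 called Col1a1 and Col1a2 there (adjusted p = 0.0451 and 0.0458), where it called 1.33% of all genes. In the AAV comparison 6 of the 6 were lower, and edgeR called Col1a1 and Col1a2 (0.539% of all genes were). In the AAV comparison neither was called with the replicate block (edgeR adjusted p = 0.0612 for both). The same held without labelled shCtrl replicate 2 or without labelled shAtf3 replicate 1, 2 or 3 (adjusted p from 0.0842 to 0.159). Their log2 fold changes were -0.91 to -0.76 in these fits, against -0.84 and -0.82 in the main fit. In the difference by the titles edgeR called both (adjusted p = 0.0348 and 0.0199, against 0.166% of all genes). These calls were lost in 8 and 5 of 21 alternatives, and by the column names neither was called. Macrophage markers (Adgre1, Csf1r, Cd68, C1qa and Mrc1) followed the same signs, 5 of 5 higher and 5 of 5 lower. Their sum was 120.3 to 153 CPM in Atf3+/+FS6KD, 131 to 187 CPM in Atf3-/-FS6KD, 179 to 197 CPM in labelled shCtrl and 163 to 168 CPM in labelled shAtf3 hearts. Most cardiomyocyte markers had the reverse signs, with 6 of 7 lower in the knockout comparison (5 of 7 with library size alone) and 7 of 7 higher in the AAV comparison. At an edgeR unadjusted p below 0.05 there were 1 higher and 1 lower in the knockout and 1 higher in the AAV comparison. Their knockout log2 fold changes ran from -0.36 to 0.47. The fibroblast and macrophage counts were the same with library size alone.

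No gene of the other marker lists was called in any comparison. The sum of Acta1 and Ckm, markers of skeletal muscle that the heart also expresses, was 3463 to 5822 CPM in Atf3+/+FS6KD and 2428 to 3097 CPM in Atf3-/-FS6KD, without overlap. Acta1, named after its values were seen, had a log2 fold change of -1.12 ± 0.26 there (edgeR unadjusted p = 0.00203, adjusted p = 0.290) and 0.25 ± 0.16 in the AAV comparison (adjusted p = 0.570). By sign, 5 of 5 erythroid markers tested were lower in the knockout comparison (0 at an unadjusted p below 0.05; sum 273 to 470.2 against 247 to 399 CPM) and 5 of 5 higher in the AAV comparison, or 4 lower and 2 higher with library size alone. Of 4 atrial markers, Myl4 and Nppa were tested, 1 higher and 1 lower in the knockout comparison and both lower in the AAV comparison. Their sum was 567 to 649 CPM in Atf3+/+FS6KD and 286 to 699 CPM in Atf3-/-FS6KD. It was 264 to 788 CPM in labelled shCtrl and 256 to 338 CPM in labelled shAtf3 hearts, again with overlap. Nppa, which the study also calls a heart failure marker, was named after its values were seen and counted without its copy row. It had -1.06 ± 0.34 in the AAV comparison (edgeR unadjusted p = 0.0122, adjusted p = 0.247). All 5 endothelial markers were above 0 in both comparisons (2 of the 5 in the AAV comparison with library size alone), with 1 at an unadjusted p below 0.05 in the knockout. The part of these lists in the values of the 10 genes was not tested.

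Across the 14 libraries, after the mean of each experiment was subtracted from the log2 CPM, Bnip3 and the fibroblast sum had a Pearson r of 0.87, and Bnip3 and the cardiomyocyte sum -0.78. Opa1 and Bnip3 had -0.86, and Opa1 had -0.69 with the fibroblast sum and 0.46 with the cardiomyocyte sum. These values describe 14 libraries that share group differences and library composition, and no test was made of them. The part of these cell types in the values of Bnip3 and Opa1 was not tested.

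**Figure D5:**
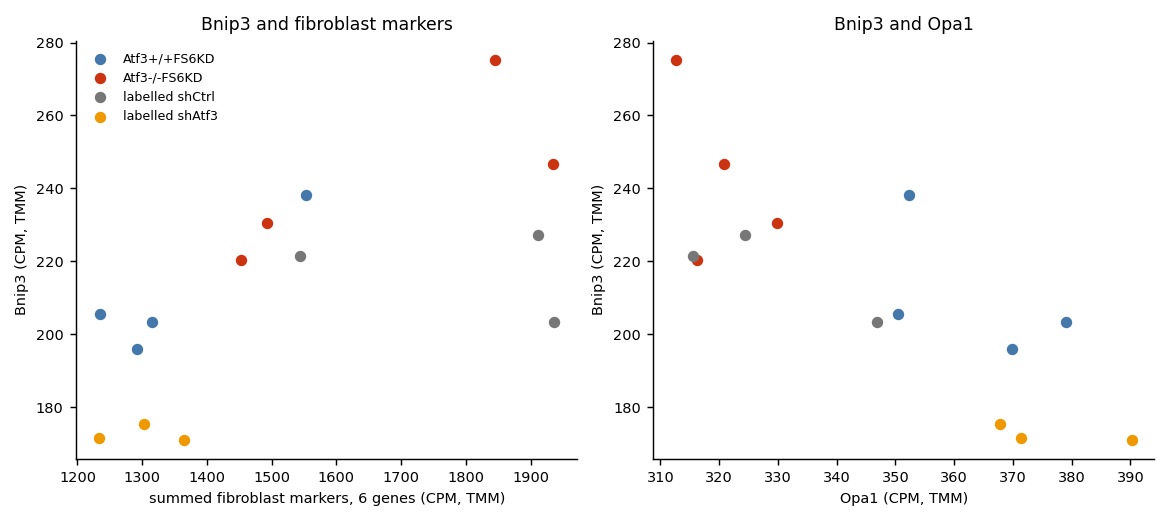
Bnip3 (CPM) in each of the 14 libraries against the summed level of 6 fibroblast markers (left, CPM) and against Opa1 (right, CPM), colored by group. The labelled shAtf3 libraries lie at 171 to 175 CPM of Bnip3 with 1233 to 1365 CPM of fibroblast markers, and Bnip3 is lower where Opa1 is higher.

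By the same measure, each gene was matched to the most similar among 5216 genes above 5 log2 CPM on average, to which the 10 were added. Bnip3 was most similar to Aspn (r = 0.96), which encodes asporin, an extracellular matrix proteoglycan. Aspn was at 39.2 to 51.2 CPM in Atf3+/+FS6KD, 45.0 to 65.4 in Atf3-/-FS6KD, 59.5 to 77.5 in labelled shCtrl and 46.7 to 48.1 in labelled shAtf3 hearts. Opa1 was most similar to Cds2 (r = 0.94), Mfn1 to Mapk9 (r = 0.92) and Mfn2, counted without its copy row, to Secisbp2l (r = 0.90). Dnm1l was most similar to Plpbp (r = 0.93), Mff to Clpx (r = 0.85) and Fis1 to Mapkapk3 (r = 0.86). Pink1 was most similar to Gstp1 (r = 0.92), Bnip3l to Mfsd1 (r = 0.82) and Fundc1 to Tmed7 (r = 0.87).

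Among themselves, the fusion genes varied together, with r = 0.79 for Mfn1 and Opa1, 0.74 for Mfn1 and Mfn2, and 0.69 for Mfn2 and Opa1 over the 14 libraries. Fis1 and Pink1 had r = 0.76. Dnm1l had r = 0.66 with Opa1 and -0.64 with Fis1. Bnip3 and Bnip3l had r = 0.06. These r values are descriptions as well.

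Other genes of the same pathways were counted from lists that hold none of the 10 genes. By sign, 49.8% of all genes were lower in the knockout comparison, 50.9% in the AAV comparison and 49.9% in the difference, and at an unadjusted p below 0.05 there were 10.1%, 12.7% and 17% of them. Scaling by library size alone shifts all genes together, so counts by sign are given under it as well. The number of genes in each list below the median of all genes was the same under all 3 scalings. In the list of fusion and Opa1 processing, which holds the proteases that cut Opa1 and the prohibitin scaffold, 11 of 12 genes were tested. By sign, 9 of the 11 were lower in the knockout comparison (median log2 fold change -0.10; 7 of the 11, median -0.04, with library size alone), and 11 of the 11 were higher in the AAV comparison (median 0.14, and also 11 of the 11 with library size alone). The difference was below 0 for 11 of the 11 (median -0.23; 10 of the 11 with library size alone). With the AAV groups by column names it was below 0 for 2 of the 11 (median 0.06), with 0 at an unadjusted p below 0.05. None of them was called by edgeR in either comparison or in the difference between them. At an unadjusted p below 0.05 there were 3 of the 11 in the knockout comparison, all lower, 4 in the AAV comparison, all higher, and 6 in the difference by the titles. Parl, the inner-membrane protease that also cuts Pink1, averaged 46.5 ± 2.03 CPM (SD, n = 4) in the Atf3+/+FS6KD hearts and 41.5 ± 2.66 CPM (SD, n = 4) in the knockout hearts. For Parl the log2 fold change was -0.17 ± 0.06 (adjusted p = 0.436) in the knockout comparison and 0.15 ± 0.06 (adjusted p = 0.348) in the AAV comparison. Phb and Phb2, the prohibitins, had log2 fold changes of -0.13 ± 0.05 (adjusted p = 0.459) and -0.10 ± 0.07 (adjusted p = 0.623) in the knockout comparison. They had 0.17 ± 0.06 (adjusted p = 0.332) and 0.19 ± 0.06 (adjusted p = 0.237) in the AAV comparison. The difference between the experiments was -0.30 ± 0.08 for Phb (adjusted p = 0.0950), -0.32 ± 0.08 for Parl (adjusted p = 0.0967) and -0.30 ± 0.09 for Phb2 (adjusted p = 0.125), and DESeq2 called all 3 in that contrast (adjusted p = 0.00886, 0.0196 and 0.0389). With the column names these differences were 0.04 for Phb, -0.01 for Parl and 0.09 for Phb2 (edgeR). In each of the lists that follow, at most 1 gene had an unadjusted p below 0.05 in the difference by column names.

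In the fission list 10 of 13 genes were tested and none was called by edgeR. By sign, 5 of the 10 were lower in the knockout comparison (median -0.0040, 0 at an unadjusted p below 0.05), or 2 of the 10 with library size alone (6 below the median of all genes under either scaling), and 8 of the 10 were higher in the AAV comparison (median 0.12, and also 8 of the 10 with library size alone). In the AAV comparison 4 of the 10 had an unadjusted p below 0.05 (3 higher and 1 lower) and 7 did not overlap between groups, where 18.4% of all genes did not. In the difference 4 of the 10 had an unadjusted p below 0.05. Spire1, which nucleates actin at contacts of mitochondria with the endoplasmic reticulum, was at 14.4 ± 2.05 CPM in labelled shCtrl and 10.4 ± 0.247 CPM in labelled shAtf3 hearts (SD, n = 3 each; log2 fold change -0.47 ± 0.11, edgeR adjusted p = 0.129; DESeq2 adjusted p = 0.0264). In the knockout comparison Mtfr1l had the smallest p of this list (log2 fold change -0.12 ± 0.07, adjusted p = 0.603). In the list of mitochondrial transport, 5 of 5 genes were tested, none was called, and Rhot2, a Miro GTPase, had the smallest p in both comparisons (log2 fold change -0.12, adjusted p = 0.694, and 0.10, adjusted p = 0.523).

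In the list of Pink1-parkin mitophagy 13 of 14 genes were tested and none was called. By sign, 11 of the 13 were lower in the knockout comparison (median -0.03) and 8 of the 13 higher in the AAV comparison (median 0.04), against 4 lower and 6 higher with library size alone. Below the median of all genes there were 11 in the knockout and 5 in the AAV comparison under every scaling. At an unadjusted p below 0.05 there were 0 in each comparison and 1 in the difference. The smallest p belonged to Vdac1, the outer-membrane channel that parkin ubiquitinates, with log2 fold changes of -0.10 (adjusted p = 0.645) and 0.10 (adjusted p = 0.466). In the list of receptor mitophagy 11 of 11 were tested and none was called, with 8 of 11 lower in the knockout (median -0.05) and 6 of 11 higher in the AAV comparison (median 0.01), against 5 lower and 5 higher with library size alone. Below the median of all genes there were 8 and 5 under every scaling, and at an unadjusted p below 0.05 there were 0 in the knockout comparison, 3 in the AAV comparison and 3 in the difference. Pptc7, a phosphatase that limits Bnip3 and Bnip3l protein, was at 228 ± 24.3 CPM in labelled shCtrl and 269.98 ± 11.03 CPM in labelled shAtf3 hearts (log2 fold change 0.24 ± 0.08, adjusted p = 0.268). Its log2 fold change in the knockout comparison was 0.02 (adjusted p = 0.963). Csnk2a1, a casein kinase subunit that phosphorylates Fundc1, had the smallest p in the knockout comparison (-0.07, adjusted p = 0.640), and Fundc2, the paralog of Fundc1, in the difference (-0.18, adjusted p = 0.205).

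In the list of autophagosome machinery all 33 genes were tested and none was called. By sign, 23 of the 33 were lower in the knockout comparison (median -0.04) and 18 of the 33 higher in the AAV comparison (median 0.01), against 12 lower and 12 higher with library size alone. Under every scaling 23 were below the median of all genes in the knockout and 11 in the AAV comparison. At an unadjusted p below 0.05 there were 2 in the knockout comparison, 1 in the AAV comparison and 1 in the difference. Foxo3, a transcription factor that induces autophagy genes and Bnip3, averaged 128 ± 19.9 CPM in the Atf3+/+FS6KD hearts and 102 ± 13.5 CPM in the knockout hearts (log2 fold change -0.32 ± 0.13, unadjusted p = 0.0323, adjusted p = 0.458). The AAV comparison gave 0.10 ± 0.11 for Foxo3 (adjusted p = 0.759), and there Atg4d, a protease of the LC3 family, had the smallest p (0.18 ± 0.06, adjusted p = 0.289).

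Hypoxia targets were counted because Bnip3 is one. In that list 12 of 13 genes were tested and none was called. By sign, 8 of the 12 were higher in the knockout comparison (median 0.06) and 8 of the 12 lower in the AAV comparison (median -0.11), the signs that Bnip3 had. With library size alone, which shifts all genes together, these counts were 11 and 9. Below the median of all genes there were 4 in the knockout and 8 in the AAV comparison under every scaling. At an unadjusted p below 0.05 there were 0 in the knockout comparison, 1 in the AAV comparison and 1 in the difference. Adm, the gene of adrenomedullin, had the smallest p in the knockout comparison (log2 fold change 0.39 ± 0.17, adjusted p = 0.499), and Slc2a1, the glucose transporter Glut1, in the AAV comparison (-0.28 ± 0.11, adjusted p = 0.361). Over left-out libraries these values spanned 0.22 to 0.52 for Adm and -0.38 to -0.17 for Slc2a1.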

How the data were processed

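Heart RNA had been purified on columns for fibrous tissue, and libraries had been prepared with a kit for stranded mRNA. For the knockout experiment they had been sequenced as single ends. Reads had been mapped to GRCm38.p6 and counted with featureCounts 2.0.0 (the aligner, and the strand setting of the counting, are not given in the sources used here). The authors deposited an expected count per gene and library, without normalization or pooling. Of these values, 19.3 to 24.4% were not whole, so they were rounded before every test. The design had assumed whole counts. Of 42396 rows, 2379 bear a symbol with an added number and were read as copies, and they held 2.40 to 2.59% of the counts. Columns of samples left unused numbered 0.

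The filter kept a gene when any library of the comparison exceeded 1 CPM. Tests were made with edgeR 4.0.16 in R 4.3.3 (TMM, quasi-likelihood F-test, two-sided, adjusted p below 0.05 over all genes tested), with no covariate. DESeq2 1.42.0, other scalings, filters, merged copies, a replicate block, depth batches and leaving out each library were alternatives, and the scripts were tested on simulated data. CPM are TMM-normalized, and log2 CPM used a prior count of 2. The sum of Mfn2 and its copy was taken from the fit with copies merged. Copy shares were compared by two-sided exact permutation tests. Exon lengths came from GENCODE for GRCm38, and promoters from RefSeq. The genes and lists were chosen with earlier results of these data known. Named genes were the 10, Mfn2_1, Atf3, Ndufs6, the single most similar gene to each, and from each list the genes called, or else the gene with the smallest p. Nppb, Plod1 and Mtor were named after their values were seen, as examples of neighbours, as were Acta1 and Nppa. Copies, overlapping genes and antisense genes are uncertain where counting could split their reads. P-values measure the spread between hearts of these groups only.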

Additional observations from a re-analysis of the deposited data

Results flagged for a closer look

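In groups of 4 libraries, a sample was counted as standing apart when its gap to the nearest other sample, divided by the range of the group, exceeded Dixon's 95% critical value. Of 26 groups examined 2 exceeded it, where chance gives about 1 in 20. The first was the share of Mfn2 reads on the copy row in Atf3-/-FS6KD, with a ratio of 0.980, because replicate 3 (36.6%) lay far from the others (49.5 to 49.8%). The second was Fis1 in Atf3-/-FS6KD, with a ratio of 0.845, because replicate 1 (83.2 CPM) lay below the others (89.6 to 90.8 CPM).

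For Opa1 and for Mfn2, the latter both alone and summed with its copy, the groups did not overlap in either experiment, with the Atf3-/-FS6KD hearts lower and the labelled shAtf3 hearts higher. Among all 15109 genes tested in both experiments, 0.503% had this order, and 0.0662% were lower in both. The knockout effect minus the AAV effect was -0.53 for Mfn2 alone, -0.38 for Opa1 and -0.30 for the sum of Mfn2 and its copy on the log2 scale. The test of that difference did not pass the threshold in edgeR for any of these 3 values (adjusted p = 0.0888, 0.0515 and 0.153), whereas DESeq2 called the first 2 (adjusted p = 0.0100 and 3.85e-05) and not the sum (adjusted p = 0.0702). The direction of the AAV effects rests on titles that the column names contradict, and the point estimate of Atf3 goes against them. With the column names the groups would be lower in both experiments, and the 3 differences were -0.33, 0.02 and -0.10 (none passed in edgeR).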

How the results depend on the processing

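Of 566 values of the 10 genes and the Mfn2 sum under the alternatives, 510 kept their direction and side of the threshold, 38 changed sign, 18 gained a call and 0 lost one. These counts leave out the fit with the AAV groups by column names, added after the data were seen. No other sign change was among Mfn1, Mfn2 alone, the Mfn2 sum, Opa1 and Bnip3. DESeq2 called 208 genes in the knockout comparison (2 of the 10), 308 in the AAV comparison (1 of the 10) and 669 in the difference (3 of the 10). Without a low count filter these counts were 2, 304 (1 of the 10) and 61. With library size alone, 1 of the 10 was called in the AAV comparison and 1 in the difference, where 205 genes were called. Merged copies gave 43 genes in the difference, with Opa1 among them, and replicates 3 and 4 alone gave 8 genes in the knockout comparison. Leaving out 1 library gave 0 to 15 genes in the knockout comparison (0 of the 10), 1 to 285 in the AAV comparison (0 to 1 of the 10) and 0 to 168 in the difference (0 to 2 of the 10). Bnip3 passed in the AAV comparison without labelled shCtrl replicate 3 (adjusted p = 0.0461). In the difference, Opa1 passed when Atf3+/+FS6KD replicate 3 (0.0326) or 1 (0.0442) or Atf3-/-FS6KD replicate 1 (0.0446) was left out. Bnip3 passed there when Atf3+/+FS6KD replicate 3 (0.0254) or Atf3-/-FS6KD replicate 4 (0.0474) was left out, and Mfn2 alone when Atf3-/-FS6KD replicate 3 (0.0491) was.

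Replicate numbers were checked for pairing by the correlation of deviations from the group means, which was 0.145, 0.0860, 0.00635 and 0.127 for knockout numbers 1 to 4 and -0.00037, 0.151 and 0.0830 for AAV numbers 1 to 3, so the numbers were not read as pairs, although knockout numbers 3 and 4 also share a greater depth. With the replicate block, 20 genes were called in the AAV comparison (0 of the 10) and 56 in the difference (1 of the 10, Bnip3, adjusted p = 0.0443). Not every library correlated best with its own number.

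Signs turned where values were near 0. With library size alone, knockout log2 fold changes became 0.048 (Mff), 0.042 (Fis1), 0.032 (Bnip3l) and 0.034 (Slc2a1), that of Pink1 in the AAV comparison became -0.038, and differences became 0.039 (Mff), 0.096 (Fis1), 0.026 (Pink1) and 0.083 (Bnip3l). Within replicates 3 and 4, knockout values became 0.010 (Fis1), 0.063 (Pink1), -0.15 (Spire1), -0.032 (Pptc7) and 0.00088 (Slc2a1). Under the stricter filter Pink1 in the AAV comparison became -0.00045, and the difference for Fundc1 became -0.0010 with DESeq2 and -0.00016 with its size factors. Over left-out libraries, knockout values spanned -0.029 to 0.0080 (Mff), -0.034 to 0.0081 (Fis1), -0.0048 to 0.21 (Spire1), -0.038 to 0.077 (Pptc7) and -0.022 to 0.094 (Atg4d). AAV values spanned -0.059 to 0.043 (Fis1), -0.087 to 0.13 (Pink1), -0.041 to 0.047 (Bnip3l) and -0.0069 to 0.20 (Foxo3), and differences -0.071 to 0.035 (Fis1), -0.21 to 0.0095 (Pink1), -0.081 to 0.0083 (Bnip3l), -0.036 to 0.050 (Fundc1) and -0.039 to 0.11 (Mfn2_1). The copy share difference was 8.02 to 12.4 percentage points (knockout) and -0.077 to 0.26 (AAV) over left-out libraries. The median level of the 10 genes went from 48.1 to 70.9 CPM per kb with the longest transcript, a shorter length than the merged exons. With the AAV groups by column names, 0 genes were called in the difference (651 at an unadjusted p below 0.05), and it turned to 0.016 (Opa1), 0.079 (Dnm1l), 0.038 (Mff), -0.12 (Bnip3), 0.093 (Phb2), 0.044 (Phb), -0.39 (Spire1), 0.0026 (Vdac1), 0.033 (Csnk2a1), 0.26 (Pptc7), 0.033 (Fundc2), 0.21 (Atg4d), -0.30 (Slc2a1), -0.21 (Col1a1) and -0.34 (Col1a2), as that relabelling changes the sign of each AAV effect. The cause of the other shifts was not tested.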
